A study of Mus musculus with 3 samples.

Results

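C/D box small nucleolar RNAs (snoRNAs) were taken as the mouse genes whose symbol starts with Snord. The rule found 99 gene entries with 98 symbols (Snord80 has a pair of entries), of 55536 annotated genes in the gene tables. Of these, 98 are annotated as snoRNA and 1, Snord43, as miRNA, and each has a single transcript. The series holds 1 group: chromatin-fraction RNA of bone marrow-derived macrophages, primary phagocytes grown from marrow of C57BL/6J mice. The cells had been treated with lipid A, a ligand of the receptor TLR4, at 100 ng/ml and for 120 min. Total RNA was depleted of ribosomal RNA and sequenced as 3 libraries, labelled biological replicates 1, 2 and 3, with a size range of 250 to 400 nt. All 3 carry the same donor label, age and sex were not collected, and no unstimulated cells were analysed here. Replicate 1 was made from 1 µg of RNA, replicate 3 from 500 ng and replicate 2 from 250 ng, so replicate and starting amount cannot be told apart. Every spread and p below is between these libraries and may be technical.

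C/D box snoRNAs carry a box C near the 5′ end and a box D near the 3′ end, which are brought together and bound by a shared set of proteins. Most guide the methyltransferase fibrillarin to a base-paired nucleotide of ribosomal RNA, where it methylates the 2′ hydroxyl of the ribose, and a few take part in cutting the ribosomal RNA precursor. In mammals most lie in introns of host genes and are released by exonucleases after the host RNA is spliced and the intron lariat is opened. Chromatin RNA contains much unfinished RNA, so reads over a snoRNA can come from the finished snoRNA or from the host transcript that still holds it.

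Gene totals were 19751051 to 21984526 expected counts per library in the gene tables and 30368008 to 38777468 estimated counts in a further table made from the reads by another quantifier. In the gene tables macrophage markers were present, with 8 of 8 at a mean of at least 1 TPM (counts per effective length, scaled to the same total in every library). Their summed level was 654.7, 1661 and 603.5 TPM in replicates 1, 2 and 3, of which Lyz2 made up 88.88, 873.2 and 39.01 TPM. All 8 were called in the test of spread between libraries described below, where 68.8% of all tested genes were called. By the scaled expected counts of that test, 5 were highest in replicate 2 and 3 (Adgre1, Mrc1 and Msr1) in replicate 1. Of all tested genes 24.3% and 19.5% were called and highest in replicates 2 and 1. In TPM Adgre1 was highest in replicate 2, and Mrc1 and Msr1 in replicate 3. T cell, B cell, neutrophil, NK cell, fibroblast and neuron markers were all under a mean of 1 TPM there, and of 3 erythroid markers only Alas2 was above it, at 1.85 TPM. With the other quantifier the T cell marker Cd3d (7.68 TPM), the neutrophil marker Cxcr2 (3.91 TPM) and Alas2 (4.65 TPM) were above it. In such bulk samples fewer cells of a type and less RNA per cell cannot be told apart.

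The sequences of the members on which the results turn are given first, as in the GENCODE M21 transcripts of build mm10, 5′ to 3′, with box C (TGATGA within the first 25 nt) and box D (CTGA within the last 25 nt) in capitals where those letters were found. The 5 members with the highest counts are Snord17 (guide for 28S ribosomal RNA, chr2:144265979-144266216, minus strand, 238 nt), Snord15b (chr7:99479563-99479707, minus strand, 145 nt), Snord22 (U22, needed for 18S ribosomal RNA processing, chr19:8725866-8725991, plus strand, 126 nt), Snord15a (chr7:99482785-99482932, minus strand, 148 nt) and Snord21 (chr5:107904555-107904648, plus strand, 94 nt). Snord17 lies in an intron of Snx5, both Snord15 genes in Rps3, Snord22 in the noncoding host Snhg1 and Snord21 in Rpl5.
Snord17: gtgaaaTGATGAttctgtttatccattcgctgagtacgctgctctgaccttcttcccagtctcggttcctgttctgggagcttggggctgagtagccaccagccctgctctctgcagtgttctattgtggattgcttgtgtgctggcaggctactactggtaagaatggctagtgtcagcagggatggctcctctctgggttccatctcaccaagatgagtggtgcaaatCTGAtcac
Snord15b: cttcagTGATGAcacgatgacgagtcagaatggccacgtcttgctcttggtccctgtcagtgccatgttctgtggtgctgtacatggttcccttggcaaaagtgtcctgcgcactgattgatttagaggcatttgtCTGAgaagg
Snord22: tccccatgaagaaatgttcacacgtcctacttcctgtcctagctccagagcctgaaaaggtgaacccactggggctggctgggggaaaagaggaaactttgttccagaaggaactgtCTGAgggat
Snord15a: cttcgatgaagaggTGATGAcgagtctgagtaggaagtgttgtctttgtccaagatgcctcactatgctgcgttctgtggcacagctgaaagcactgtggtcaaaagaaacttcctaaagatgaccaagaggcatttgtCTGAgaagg
Snord21: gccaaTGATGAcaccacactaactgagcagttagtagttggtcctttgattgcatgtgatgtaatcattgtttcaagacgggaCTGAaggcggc

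The 4 snoRNAs of the ribosomal protein gene Rpl13a are shown because they share a host on chromosome 7, minus strand, and differ in count. Their positions are chr7:45127382-45127464 for Snord32a, chr7:45126601-45126670 for Snord34, chr7:45126346-45126435 for Snord35a and chr7:45126864-45126947 for Snord33.
Snord32a: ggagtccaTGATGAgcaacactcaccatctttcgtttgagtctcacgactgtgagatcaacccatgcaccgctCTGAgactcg
Snord34: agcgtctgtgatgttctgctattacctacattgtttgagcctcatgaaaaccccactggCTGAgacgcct
Snord35a: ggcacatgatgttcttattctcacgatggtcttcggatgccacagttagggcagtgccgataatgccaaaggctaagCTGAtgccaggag
Snord33: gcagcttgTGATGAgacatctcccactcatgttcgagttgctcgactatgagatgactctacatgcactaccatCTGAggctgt

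Snord14d (chr9:40803995-40804080) and Snord14c (chr9:40803583-40803668), copies of U14 on the plus strand within Hspa8, are shown because they are nearly the same. They are identical at 84 of 86 aligned positions, or 97.7%, so the split of reads between them is uncertain.
Snord14d: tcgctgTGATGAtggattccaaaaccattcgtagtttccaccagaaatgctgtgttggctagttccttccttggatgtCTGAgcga
Snord14c: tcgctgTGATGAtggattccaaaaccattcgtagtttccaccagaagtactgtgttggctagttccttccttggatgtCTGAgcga

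Snord118 (U8, chr11:69073427-69073561, plus strand) is shown because it lies outside any host gene. Snord116l1 (chr7:59894620-59894713, minus strand) stands for a repeated imprinted cluster in which no read was counted.
Snord118: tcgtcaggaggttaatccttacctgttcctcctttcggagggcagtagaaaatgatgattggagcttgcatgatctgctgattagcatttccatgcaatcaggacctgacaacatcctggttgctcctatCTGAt
Snord116l1: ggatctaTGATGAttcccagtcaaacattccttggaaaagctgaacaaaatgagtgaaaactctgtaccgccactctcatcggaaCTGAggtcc

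Across the 99 members, TGATGA was found in the first 25 nt of 70 (70.7%) and CTGA in the last 25 nt of 98 (99%), on the transcript strand, with both in 69 (69.7%). Among 51 H/ACA box snoRNAs and small Cajal body RNAs, the related guides for pseudouridine and for spliceosomal RNA, the shares were 7.84%, 23.5% and 7.84%. Among 3474 other miRNA and small nuclear RNA entries of at least 60 nt they were 0.173%, 10.4% and 0.0288%. On the opposite strand TGATGA was found in 0% and CTGA in 6.06% of members. These motifs do not overlap each other, and a match is a description of letters. Among those shown, Snord22, Snord118, Snord34 and Snord35a had no TGATGA in the window, and Snord53 was the 1 member without CTGA.

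Members of the family were short. They ran from 64 to 238 nt with a median of 84 nt, so all 99 are shorter than the 250 nt at which the labelled size range begins. Of them 87 were under 100 nt, 7 were of 100 to 122 nt and 5 were of 123 nt or more. In the gene tables a gene's effective length, the number of positions at which a fragment could start, was above 0 from 123 nt in replicate 1, 129 nt in replicate 2 and 127 nt in replicate 3. There, 94 members had an expected count of 0 in every library, and only Snord17, Snord15b, Snord22, Snord15a and Snord118 had any. A 0 for the other 94 is therefore no measure of absence. The other quantifier gave members effective lengths of 13.84 to 77.55 nt and an estimated count above 0 in any library to 67 of 99. It left 32 at 0 in every library, 42 with a mean of at least 10, 12 with a mean of at least 100 and 4 with a mean of at least 1000.

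**Figure D1:**
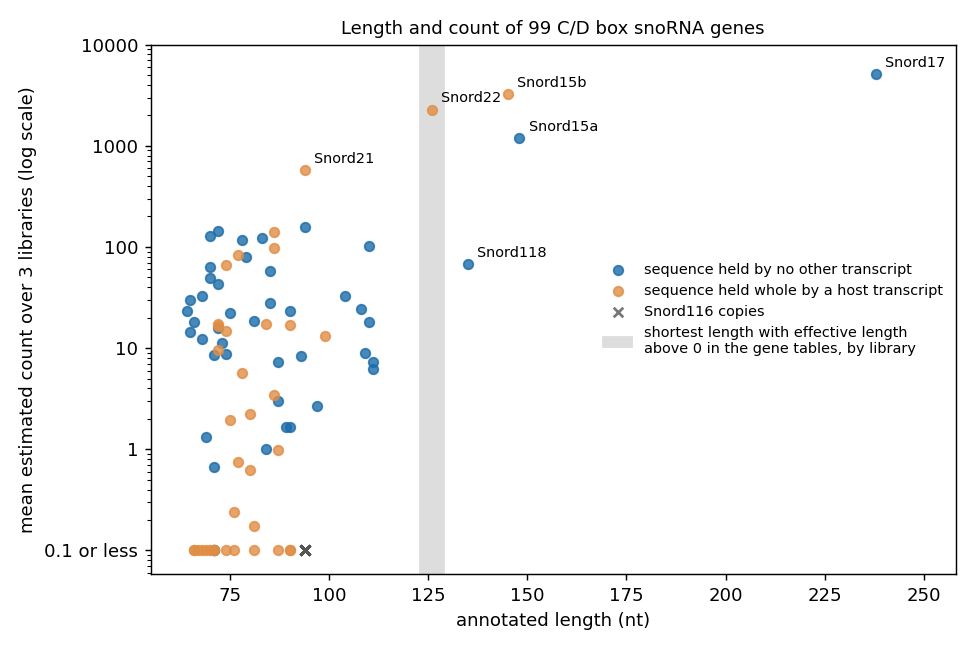
Mean estimated count over 3 libraries (log scale, values of 0.1 or less drawn at 0.1) against annotated length (nt) of each of 99 C/D box snoRNA genes, with the shortest lengths that have an effective length above 0 in the gene tables (123 to 129 nt by library) as a grey band. The 5 members of at least 123 nt include the 4 highest counts, and the 17 Snord116 copies lie together at 0.

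Snord17, Snord15b, Snord22 and Snord15a held most of the counts. Snord17 had 8028, 3241 and 4189 estimated counts in replicates 1, 2 and 3, and 7575, 2867 and 3685 expected counts in the gene tables. Snord15b, a guide for 28S ribosomal RNA, had 4919, 1706 and 3132 estimated counts, and 4529, 1515 and 2740 expected counts. Snord22 had 2841, 1494 and 2517 estimated counts, and 2197, 1068 and 1741 expected counts. Replicate 1 was the highest and replicate 2 the lowest library for all 3 of these RNAs in both tables. Snord15a, identical to Snord15b at 66% of aligned positions, had 1616, 819 and 1111 estimated counts and 1376, 661 and 934 expected counts, with the same order of libraries. These 4 genes made up 88.52%, 77.93% and 75.75% of all estimated counts of the 99 members in replicates 1, 2 and 3. Together the 99 members took 0.06474%, 0.02631% and 0.03728% of estimated counts, a mean of 0.0428% ± 0.0198 (SD, n = 3). In the gene tables the share was 0.0503% ± 0.0259 (SD, n = 3).

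Snord21 came next and was the highest member under 100 nt, with 527.8, 308.4 and 876 estimated counts, while the gene tables list it at 0. The remaining members were lower. Snord83b of Rpl3 had 138, 166 and 166 estimated counts, Snord49b of 2410006H16Rik had 123, 124 and 189, and Snord14d had 138.3, 113.1 and 172.9. Outside any host, Snord104 had 135, 69 and 181 estimated counts. Mean estimated counts of 123.3 (Snord32a) to 49.0 (Snord82) followed for Snord32a, Snord53, Snord89, Snord14c, Snord47, Snord55, Snord118, Snord99, Snord34, Snord71 and Snord82. Per effective length, as TPM of the other quantifier, the order changed, with Snord15b at 3610 ± 2330 TPM, Snord22 at 3238 ± 1430, Snord17 at 2001 ± 1190, Snord15a at 1236 ± 616 and Snord21 at 945.1 ± 431 (SD, n = 3 each). The spreads of each neighbouring pair among these 5 overlapped. Within each library Snord22 was above Snord17, and Snord17 above Snord15a. The order of Snord15b and Snord22, and that of Snord15a and Snord21, changed between libraries. Snord83b followed at 258.8 ± 30.0 TPM, and its 3 libraries (238.7 to 293.2 TPM) lay below those of Snord21 (454 to 1260 TPM).

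**Figure D2:**
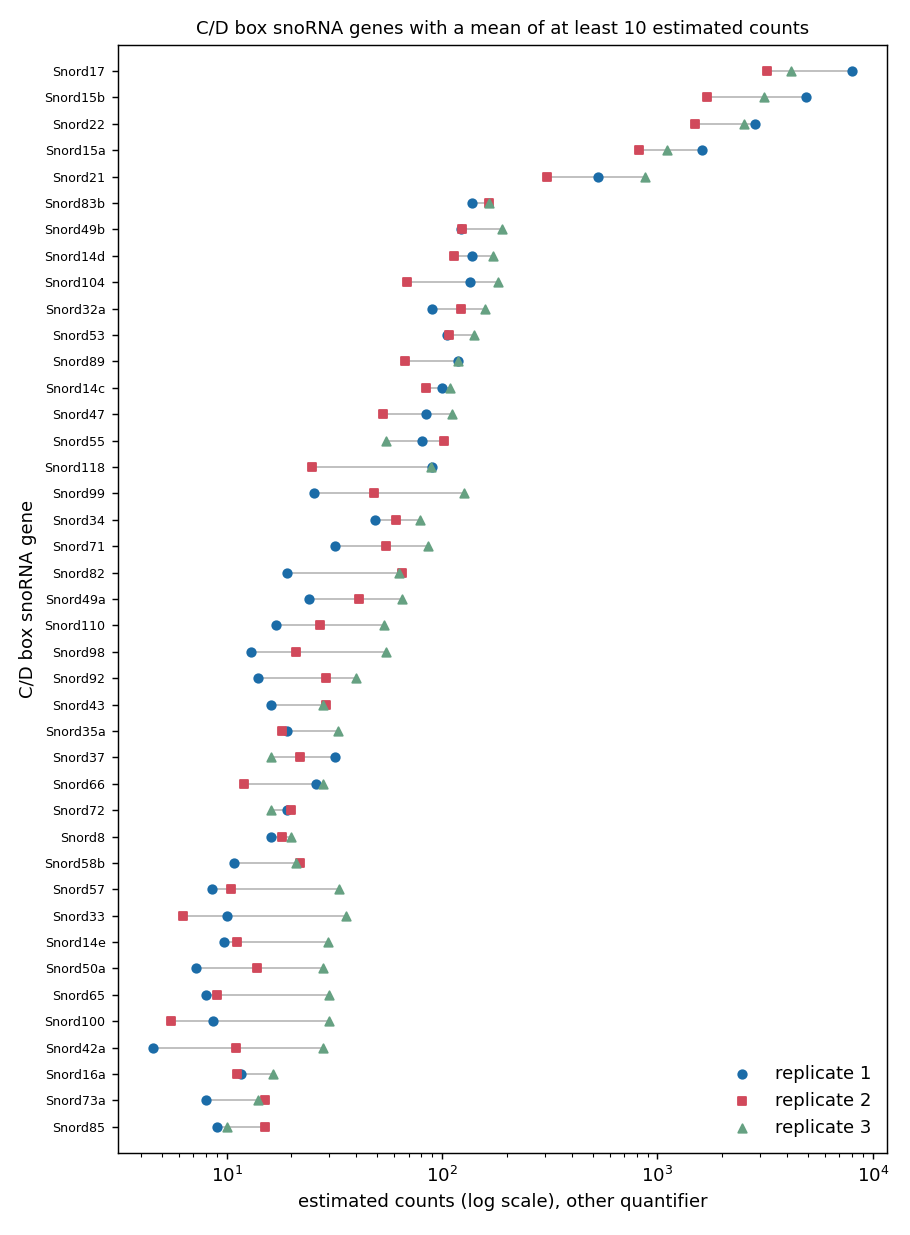
Estimated counts (log scale) of 41 of the 42 C/D box snoRNA genes with a mean of at least 10, one row per gene from the highest mean down, with a point for each library and a line from lowest to highest. The top 4 lie between 819 and 8028 counts and no other gene passes 876.

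TPM of these RNAs depended on effective length as much as on reads. Snord22 had an effective length of 1.37 nt in replicate 1 and 0 in replicates 2 and 3 of the gene tables. Its TPM there was 67934 in replicate 1 and listed at 0 in replicates 2 and 3, although 1068 and 1741 expected counts were assigned to it. In replicate 1 it was the gene with the third highest TPM and held 6.8% of all TPM with 0.0111% of expected counts. Snord15b had 39407, 24509 and 37564 TPM on effective lengths of 4.87, 2.93 and 3.32 nt. For Snord15b, replicates 1 and 3 thus differed in counts (4529 and 2740) more than in TPM. For Snord17, with effective lengths of 52.31, 33.8 and 37.57 nt, 1 count was worth 0.811, 1.4 and 1.21 TPM, against 8.7, 16.2 and 13.7 TPM for Snord15b. All members together held 12.41%, 3.782% and 5.312% of summed TPM in the gene tables, and 2.096%, 0.8275% and 1.37% with the other quantifier. Counts are therefore used to compare these RNAs between libraries below. Levels of hosts, markers and protein genes are also given as TPM, which carries the same limit through the shared total.

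**Figure D3:**
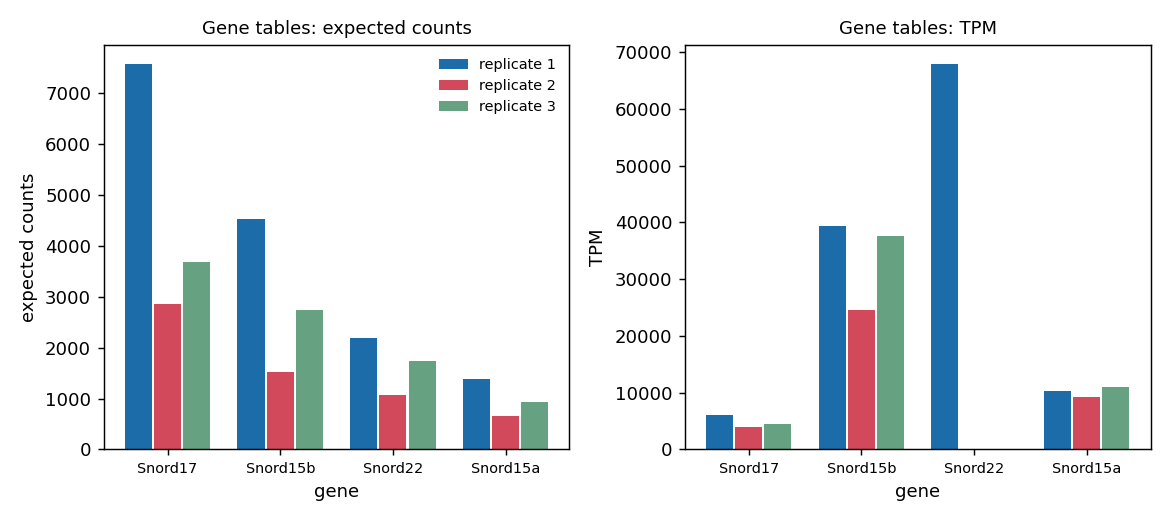
Expected counts (left) and TPM (right) of the 4 members with a mean of at least 10 expected counts in the gene tables, one bar per library. Snord22 had between 1068 and 2197 counts in the libraries but 67934 TPM in replicate 1 and 0 in the other two.

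The spread between the 3 libraries was tested for each gene against counting error alone (chi-square test on counts scaled with TMM factors from edgeR, Benjamini-Hochberg adjustment over all genes with a mean of at least 10, called at an adjusted p under 0.05). All 4 members tested in the gene tables were called, Snord17, Snord15b, Snord22 and Snord15a, against 68.8% of 14200 genes tested. All 4 were highest in replicate 1, where 19.5% of tested genes were called and highest. With the other quantifier 26 of 42 tested members (61.9%) were called, against 58.3% of 23319 genes tested, so the share of members called was near that of all genes. By TMM scaling 18 of the 42 tested members were called and highest in replicate 1, 1 in replicate 2 and 7 in replicate 3. Among all tested genes 24.2%, 14.2% and 19.9% were called and highest in replicates 1, 2 and 3. This direction depended on the scaling, which relative to gene totals moved every gene by 0.31, -0.02 and -0.29 on the log2 scale in replicates 1, 2 and 3 (0.14, -0.0038 and -0.13 in the gene tables). By gene totals the same 26 members were highest in replicate 1 for 10, in replicate 2 for 3 and in replicate 3 for 13. The share of all tested genes by highest library was not counted by gene totals. Tallies by gene totals, here and below, therefore do not show a trait of the members.

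For 18 of the 26 called members the highest library was the same under TMM, DESeq2 and gene-total scaling. The 10 highest in replicate 1 were Snord17, Snord15b, Snord22, Snord15a, Snord14d, Snord14c, Snord89, Snord118, Snord37 and Snord66. In CPM (counts scaled to a common library size) scaled by TMM, Snord17 was at 328.6, 90.3 and 88.1, and Snord15b at 201.3, 47.5 and 65.9. Snord15a was at 66.1, 22.8 and 23.4 scaled CPM (adjusted p = 4.37e-230, chi-square test across all genes with edgeR TMM factors). For these RNAs replicate 1 stood apart and replicates 2 and 3 lay closer together. The 7 highest in replicate 3 were Snord99, Snord98, Snord57, Snord33, Snord65, Snord100 and Snord42a, and the 1 highest in replicate 2 was Snord82, which lies in the nucleolin gene Ncl. Of the 7, Snord99, Snord57, Snord33 and Snord100 lie whole within an exon of a host transcript. So do Snord15b, Snord22, Snord14d and Snord14c of the 10. All of these and Snord42a had estimated counts that are not whole numbers. Means of Snord57, Snord33, Snord65, Snord100 and Snord42a were only 14.5 to 17.4 estimated counts. The test covers counting error, not error in how reads are shared out between entries. Snord99, in the noncoding host Snhg12, was at 1.04, 1.35 and 2.67 scaled CPM, where replicate 3 was highest and replicate 1 lowest. Snord21 was called but had 21.6, 8.59 and 18.4 scaled CPM, and its highest library changed to replicate 3 by gene totals. The largest spread beyond counting error, as a squared coefficient of variation, was 0.734 for Snord17, followed by 0.672 for Snord15b, 0.49 for Snord118, 0.464 for Snord37, 0.449 for Snord15a and 0.379 for Snord33.

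By length class the values were as follows. All 5 members of at least 123 nt were called and highest in replicate 1 under TMM, DESeq2 and gene-total scaling. Their median log2 ratio of replicate 1 over the mean of replicates 2 and 3 was 1.52 (range 1.30 to 1.88) by TMM and 1.04 by gene totals. Of 4 tested members of 100 to 122 nt 2 were called, with a median ratio of 0.62 by TMM. Of 33 tested members under 100 nt 19 were called, or 57.6% against the 58.3% of all tested genes. By TMM 11 were highest in replicate 1, 1 in replicate 2 and 7 in replicate 3. By gene totals it was 4, 3 and 12, with no share of all genes counted. Their median log2 ratio was 0.13 by TMM, with a range of -1.27 to 1.46, and -0.34 by gene totals. Across the 42 tested members the Spearman correlation of length with this ratio was 0.576, a description over genes that share the same libraries. These ratios are from the other quantifier, which gave every member an effective length of at least 13.84 nt. In the gene tables the shortest length with an effective length above 0 differed between libraries. It was 123, 129 and 127 nt in replicates 1, 2 and 3, and the part of effective length in this pattern was not tested.

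H/ACA box snoRNAs, which run from 121 to 205 nt here, were set beside the C/D box members. Of 42 tested C/D box members 26 were called and 18 of these were highest in replicate 1 (10 by gene totals). Of 27 tested H/ACA genes 24 were called and all 24 were highest in replicate 1, also by gene totals. Among all 23319 tested genes 58.3% were called, and by TMM 24.2% were called and highest in replicate 1. By gene totals the latter share was not counted. The median log2 ratio of replicate 1 over the others was 0.41 for the 42 C/D box and 1.79 for the 27 H/ACA genes by TMM, and -0.08 and 1.32 by gene totals. The difference between the families was not tested, and length differs between them. At 123 to 150 nt, the 4 C/D box members had a median of 2240 TPM of the other quantifier, against 21.1 TPM for 36 H/ACA genes, with ranges of 85.4 to 3610 and 0 to 316 TPM. Over all genes of each family the mean expected count per gene was lower for C/D box than for H/ACA genes, by a log2 difference of -1.06 ± 0.29 (SD, n = 3). The 94 C/D box members that the gene tables list at 0 enter that mean. It was -0.83 ± 0.33 with estimated counts of the other quantifier and -0.85 ± 0.33 with expected counts per annotated length (SD, n = 3 each). As TPM of the gene tables the difference turned to 0.10 ± 0.63 (SD, n = 3).

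**Figure D4:**
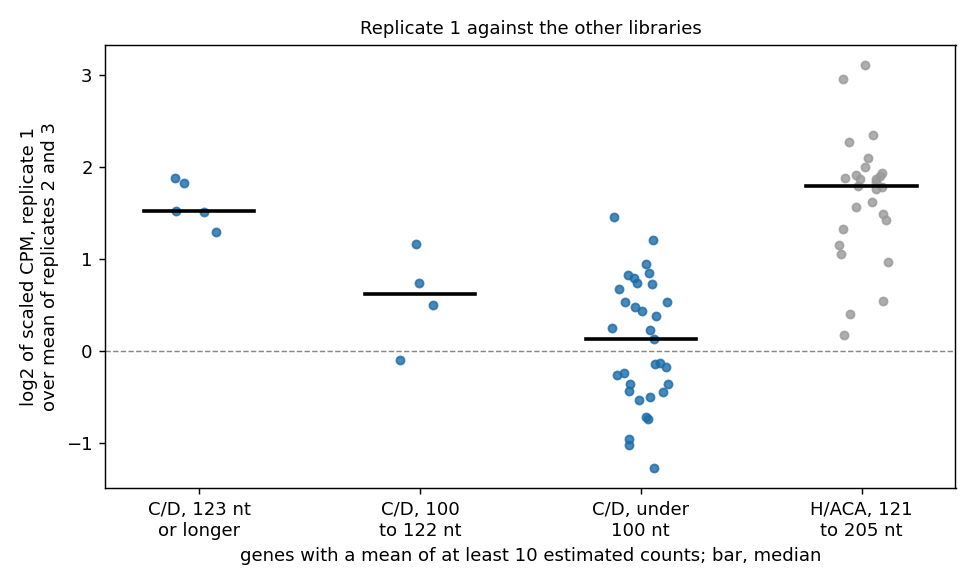
Log2 ratio of scaled CPM in replicate 1 over the mean of replicates 2 and 3 for C/D box genes in 3 length classes and for H/ACA genes, each point a gene with a mean of at least 10 estimated counts and each bar a median. Medians run from 1.52 in the longest C/D class to 0.13 under 100 nt, and H/ACA genes lie at 1.79.

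Host genes framed most members. Of 99 members 96 lay within 54 host genes on the same strand, 57 in protein-coding and 39 in noncoding hosts, and 22 of them in genes of ribosomal proteins. For 55 of the 96 no exon of any annotated host transcript overlapped the snoRNA, while for 37 a host transcript held the whole snoRNA within an exon. Outside the Snord116 cluster, 14 of 37 members held whole by a host transcript had under 0.5 estimated counts in every library, against 2 of 45 members whose sequence no other transcript held. Their median counts were 0.972 and 18.3. Estimated counts were whole numbers in every library (within 0.001) for 13 of the 37 and 41 of the 45, and counts that are not whole mark reads shared out between entries. A low value of such a member, among them Snord78 and Snord80 of Gas5, can therefore be a matter of assignment between entries, which was not tested. Snord47 was the 1 of 4 Gas5 members with a mean of at least 10, with 83.9, 53.3 and 110.9 estimated counts, and the others had means under 1.

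Members of the same host differed in level. In Rpl13a, whose snoRNAs Snord32a, Snord33 and Snord35a are known from lipid stress in cultured rodent cells, Snord32a had 90, 122 and 158 estimated counts. Snord34 had 49, 61 and 79, Snord35a had 19, 18 and 33, and Snord33 had 10.1, 6.24 and 35.8. Per effective length Snord32a was 7.34 times Snord33, with 9.05, 19.7 and 4.43 times in replicates 1, 2 and 3, and it was the highest of the 4 in 3 of 3 libraries. Snord33 is one of the members that a host transcript also holds. In Hspa8 Snord14d was 8.75 times Snord14e, and in 2410006H16Rik Snord49b was 9.58 times Snord65. Snord83b was 6.67 times Snord43 in Rpl3, and Snord53 was 4.67 times Snord92 in Wdr43. Snord15b was 2.92 times Snord15a in Rps3, by 3.21, 2.18 and 2.92 times in replicates 1, 2 and 3. In all 7 hosts with at least 2 such members the same member was highest in 3 of 3 libraries.

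In TPM of the other quantifier, 34 of the 96 hosted members stood above their host gene on the mean. Among 39 hosted members with a mean of at least 10 estimated counts, the median over genes of the mean log2 ratio of snoRNA over host TPM (0.1 added to both) was 1.57, and 29 of 39 were above their host on the mean, 24 of them in every library. Among the 57 hosted members with lower means, 5 were above their host. The ratio over the 39 ranged from -1.66 for Snord92 in Wdr43 to 8.33 for Snord15b in Rps3. The 6 highest were Snord15b at 8.33 ± 1.29, Snord22 at 7.79 ± 0.58, Snord15a at 6.87 ± 1.01, Snord49b at 5.77 ± 0.49, Snord21 at 5.0 ± 0.71 and Snord99 at 4.66 ± 1.05 (SD, n = 3 each). The 3 lowest were Snord92 at -1.66 ± 0.26, Snord8 at -1.45 ± 0.47 in the chromatin remodeller gene Chd8 and Snord66 at -1.27 ± 0.86 in the translation factor gene Eif4g1. Since TPM of such short RNAs rests on small effective lengths, the size of each ratio is uncertain. The Spearman correlation between member and host level over the 39 was 0.0342, a description over genes of the same libraries, of which some share a host.

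Hosts and their snoRNAs also differed in the library where they were high. Snord15b and Snord15a had their lowest counts in replicate 2, the library where their host Rps3 was highest. Rps3 had 8.64, 20.83 and 9.47 TPM in replicates 1, 2 and 3 of the gene tables. In TMM-scaled CPM of the other quantifier, the unit used for the snoRNAs, it had 20.2, 27.9 and 14.1, a smaller contrast. Snord32a was not called (adjusted p = 0.776, same test as above), while its host Rpl13a was called. Rpl13a had 22.46, 78.52 and 19.07 TPM, and 14.8, 25.7 and 6.76 scaled CPM with the other quantifier. Snord14d was lowest in replicate 2, where its host Hspa8, a heat shock protein gene, was highest. Hspa8 had 54.3, 126.03 and 49.41 TPM, and 85.5, 149.5 and 45.0 scaled CPM with the other quantifier. Of 50 tested hosts 41 were called in the gene tables (68.8% of all tested genes were). Of the same 50 tested hosts, 24 were called and highest in replicate 2, against 24.3% of all tested genes. Of the 39 hosted members, 8 were higher in replicate 2 than in the mean of the others, while the host was higher for 23 of the 39 (TMM-scaled CPM, other quantifier). For the 16 in ribosomal protein hosts the median log2 ratio of replicate 2 over the others was -0.22 for the snoRNAs and 0.99 for the hosts. The other 23 had medians of -0.45 and -0.06. The 39 members lie in 28 hosts (11 for the 16 and 17 for the other 23), so a shared host enters once for each of its members. Summed macrophage markers without Lyz2 were 565.8, 787.7 and 564.5 TPM in replicates 1, 2 and 3. By TMM-scaled expected counts, 5 of the 8 markers were highest in replicate 2 and 3 in replicate 1. The relation of these markers to the host values was not tested.

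**Figure D5:**
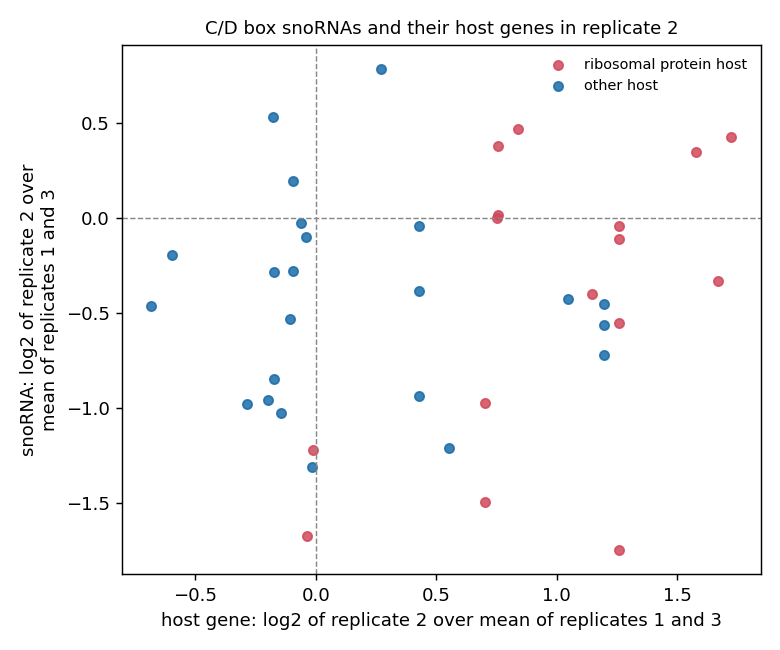
Log2 ratio of replicate 2 over the mean of replicates 1 and 3 (TMM-scaled CPM, other quantifier) for 39 C/D box snoRNAs with a mean of at least 10 estimated counts (vertical) against that of their host gene (horizontal), with ribosomal protein hosts in red. Most points lie below 0 for the snoRNA, and 14 of 16 with a ribosomal protein host lie above 0 for the host. A host is drawn once for each of its members, with 28 hosts in all and 11 ribosomal protein hosts.

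Of the 3 members outside any annotated host gene, Snord118 and Snord104 are described here. Snord118, known in vertebrates for maturation of 5.8S and 28S ribosomal RNA, had 90, 25 and 89 estimated counts but 5, 1 and 0 expected counts in the gene tables. It was called with the other quantifier, at 3.68, 0.696 and 1.87 scaled CPM (adjusted p = 7.45e-15, chi-square test across all genes with edgeR TMM factors). Snord104 was at 5.53, 1.92 and 3.81 scaled CPM (adjusted p = 8.58e-12 by the same chi-square test with edgeR TMM factors). Replicate 2 was lowest for both genes. Of the U14 copies, Snord14d and Snord14c were called, Snord14e was not (9.75, 11.2 and 29.7 estimated counts), and Snord14a of Rps13 was at 0. The U3 genes, box C/D RNAs outside the symbol rule, were called and highest in replicate 1 for 5 of 5 in the gene tables. Of all genes tested there, 19.5% were called and highest in replicate 1. Rnu3a had 4392, 1741 and 841 expected counts and 5666, 2759 and 1074 estimated counts. Rnu3b1, Rnu3b2, Rnu3b3 and Rnu3b4 have the same values, so their reads cannot be told apart and they do not count as separate genes. Each had 1322, 402 and 243 expected counts, but 124.3, 3.45e-06 and 1.89e-04 estimated counts with the other quantifier.

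No read was assigned to the imprinted members by the other quantifier. All 17 Snord116 copies, Snord64 and Snord107, which lie on chromosome 7 in the region linked to Prader-Willi syndrome in human, had 0 estimated counts in every library. The 17 copies have 4 distinct sequences and 14 share one. For a copy with that sequence 30 other transcripts hold it, and the other copies that share it are among these. A host transcript holds Snord64 and Snord107 whole. Reads of these members may therefore be assigned to other entries, and no upper limit is given. Their host Snhg14 was at 0.59, 1.03 and 1.99 TPM in the gene tables, and Gm38393, which holds Snord64 and Snord107, at 0, 0 and 0.02 TPM. With the other quantifier Snhg14 had 148.6, 360.3 and 522.1 estimated counts. These clusters are known for expression in brain.

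Genes for the proteins of C/D box particles were all present. The methyltransferase Fbl had 8.23 ± 1.34 TPM, the scaffold proteins Nop56 and Nop58 had 14.4 ± 1.41 and 9.04 ± 3.18 TPM, and Snu13, which binds the RNA first, had 3.60 ± 1.98 TPM (SD, n = 3 each). Of these 4 genes 3 were called in the gene tables, where 68.8% of all tested genes were, Fbl highest in replicate 1 and Nop58 and Snu13 in replicate 2, and Nop56 was not (adjusted p = 0.266, same test as above). With estimated counts Nop56 was called (adjusted p = 3.2e-08) and Nop58 was not (adjusted p = 0.094, chi-square test with edgeR TMM factors for both). Nop56 and Nop58 are also hosts, of Snord110 and Snord57 and of Snord70 and Snord11. Of 17 genes for assembly and release of snoRNAs 8 were called, against 68.8% of all tested genes, 3 highest in replicate 1, 3 in replicate 2 and 2 in replicate 3, and all 17 had a mean of at least 1 TPM. The exonucleases Xrn1 and Xrn2 were highest of these, at 103.8 ± 36.6 and 76.4 ± 11.3 TPM. The cap methylase Tgs1 had 33.9 ± 8.86 TPM, the nuclear exosome nuclease Exosc10 12.2 ± 1.93 and the lariat debranching enzyme Dbr1 3.67 ± 0.56 TPM (SD, n = 3 each).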

How the data were processed

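Per the labels, the 3 libraries were placed in 1 group, so no contrast exists. The authors deposited gene tables of expected counts (read totals shared out among features, made from transcriptome alignments to mm10 with GENCODE M21 per a deposited note) with TPM, and transcript tables by another quantifier, made directly from the reads, of estimated counts and TPM. Not given in the sources used here: quantifier names, strand setting and trimming. Without a strand setting, the 5 members that overlap an opposite-strand gene cannot be told apart from it.

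Entries matching GENCODE M21 (55536 of 81881) were used; the rest held 0.845%, 0.282% and 0.179% of expected counts. The sources do not say whether replicates are separate cultures. Variation between libraries was tested with edgeR 4.0.16 TMM factors (R 4.3.3; DESeq2 1.42.0 as alternative) on rounded counts. On simulated data for this test, 64% of 1.5-fold and 96% of 3-fold changes were recovered with 8 false calls (14200 genes), and 55% and 92% with 10 (23319 genes, other quantifier). Apart from the changed genes, these data were drawn with counting error alone, so the number of false calls does not carry over to the real libraries. Motifs and hosts came from the GENCODE M21 reference.

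Named genes are the 20 highest by mean count, the 6 with the largest spread among those called, the 6 highest and 3 lowest snoRNA-to-host ratios, members outside hosts, and fixed lists with their hosts. The rule was written for expected counts; since 94 members have none, it was applied to estimated counts after values were seen, and multi-member hosts and those grouped by highest library were also named after their values were seen. Members and lists were chosen with earlier results of these data known. Papd5 matched no symbol. One member outside hosts is not reported here. Alternatives changed scaling, filter, quantifier, pseudocount and libraries.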

Additional observations from a re-analysis of the deposited data

How the results depend on the processing

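Only 1 group exists, and alternatives on estimated counts were added after seeing the data. No paired analysis was possible because all 3 libraries belong to 1 group. In the gene tables the 4 called members were 4 or 5 under every scaling, filter and left-out library tried, but 26 with estimated counts of the other quantifier. There, 25 members were called with DESeq2 factors and 28 by gene totals, of 42 tested, against 13409 and 18399 of 23319 genes. Without a filter 23 of 66 tested members were called, against 13933 of 33262 genes. At a mean of at least 50 it was 16 of 19, against 11945 of 16992 genes. Leaving out 1 library gave 15 of 46 without replicate 1, 19 of 41 without replicate 2 and 17 of 37 without replicate 3. Of all genes tested, 8457 of 23759, 12055 of 23390 and 9087 of 22688 were then called. Of the 26 called members 18 were highest in replicate 1, where 24.2% of all tested genes were called and highest. By gene totals it was 9 of 28 called, and 16 of 19 without replicate 2 and 16 of 17 without replicate 3. The share of all genes was not counted for these alternatives. With a library left out, fewer libraries remain in which a member can be highest, so these counts are no further support. Members with a mean of at least 10 numbered 4 in the gene tables and 42 with estimated counts (37 to 45 on leaving out a library). The members' share of counts was 0.0503%, against 7.17% as TPM, and 0.0357% to 0.0604% on leaving out a library. The median log2 ratio to the host was 9.04 for 4 members by TPM of the gene tables, 5.03 by counts per annotated length, 1.39 with the other quantifier (39 members; here the mean over libraries of each library's median, against 1.57 as the median over genes of their means) and -6.63 without a filter, where members listed at 0 enter. It was 7.98 to 9.80 on leaving out a library. The log2 difference from H/ACA genes was -1.06, -0.83 with estimated counts, -0.85 per annotated length, 0.10 as TPM, and -1.22 to -0.94 on leaving out a library. Without replicate 1 the mean scaled CPM (other quantifier) moved by over 1.5 times for 4 of the 20 highest members. It was 89.2 against 169 for Snord17, 56.7 against 104.9 for Snord15b, 23.1 against 37.4 for Snord15a and 1.28 against 2.08 for Snord118.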

Other observations

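Snord22 alone held 6.8% of summed TPM in replicate 1 of the gene tables and 0 in the other libraries. Without it the TPM of every other gene in replicate 1 would be 1.073 times as high as deposited. By raw estimated counts, 27 of the 42 members with a mean of at least 10 were highest in replicate 3, the library with the largest gene total, 8 in replicate 2 and 7 in replicate 1.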
